A study of Mus musculus with 18 samples.

Results

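The growth hormone and insulin-like growth factor (IGF) axis was followed here as 10 genes across 6 groups of mouse livers. The members were taken by gene symbol (Ghr, Stat5b, Socs2, Bcl6, Igf1, Igfals, Igfbp1, Igfbp2, Igfbp3 and Igfbp4), and were chosen with earlier results of these data known. All 10 were found among the 52636 genes of the count table. All 10 also passed the filter on low counts that left 13958 genes for testing, and every member had reads in each of the 18 libraries. The study sequenced liver RNA from 3 mice per group, taken at ZT8, which is 8 hours after lights on. H-KO and H-WT livers were from a line with the conditional allele Hnf4atm1.1Gonz, sampled at 10 weeks of age. BH-KO and BH-WT livers were from a line with that allele and the conditional allele Arntltm1Weit of the clock gene Arntl (Bmal1), also at 10 weeks. BH-HF-KO and BH-HF-WT livers were from the line with both alleles aged 45 weeks, fed a high-fat diet for 35 weeks from the age of 10 weeks. All mice, WT included, carried Albtm1(cre/ERT2)Mtz in the strain label and received tamoxifen (10 mg/mL, intraperitoneally) on 5 days at 8 weeks. This Cre recombinase is driven from the albumin gene, which hepatocytes express, so other liver cells would keep their alleles. The KO and WT mice of a line share 1 strain label, and the labels used here do not say how the WT mice differ from them.

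Growth hormone from the pituitary binds its receptor on hepatocytes, the product of Ghr, and the kinase JAK2 then activates the transcription factor STAT5B. STAT5B drives hepatic Igf1, the main source of IGF-1 in blood, together with Igfals and the feedback inhibitors Socs2 and Cish. Most circulating IGF-1 is held in a complex of IGF-1, an IGF-binding protein such as IGFBP3, and the acid-labile subunit encoded by Igfals. IGFBP1 and IGFBP2 are smaller carriers, and Igfbp1 is known in liver as a gene that fasting raises and insulin represses. BCL6 is a repressor that occupies many STAT5 sites, and the timing of growth hormone pulses sets the sex-biased expression of many liver genes. HNF4A is a nuclear receptor that maintains hepatocyte gene expression, and ARNTL is an activator of the circadian clock.

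RefSeq promoter windows (build GRCm38.p6, 250 bases before to 50 bases after an annotated start) were found for 9 of the 10 members, 15 windows in all, and none for Socs2. They were searched on both strands for 4 short motifs. These were the STAT5 element TTCNNNGAA, the E-box CACGTG that clock activators bind, the HNF4 element CAAAGTCCA and the FOXO element CAAAACAA. No motif shares a site with another in the windows printed. A match describes letters and is not evidence of binding. STAT5 elements were in 4 of the member windows, 2 of Bcl6 and 2 of Igfals, against 8.3% of 32851 mouse windows of the same length. E-boxes were in 1 Igfbp2 window and 1 Bcl6 window, against 7.15% of all windows. The FOXO element was in 1 window, that of Igfbp1, against 2.51% of all windows, and the HNF4 element was in none of the 15, against 0.475%. The windows below are 1 each of the 6 members that passed in a KO comparison at 10 weeks, and that of Bcl6, which passed in none, for its STAT5 elements. Those with a motif come first. Each is written 5′ to 3′ on the strand of its gene, with motif letters in capitals. The Bcl6 window (chr16:23981234-23981533, minus strand) holds 3 STAT5 elements, the first beginning at base 83 of the 300 in the window. The Igfals window (chr17:24877981-24878280, plus strand) holds 1, beginning at base 193. The Igfbp1 window (chr11:7197537-7197836, plus strand) holds the FOXO element from base 143, and the Igfbp2 window (chr1:72824230-72824529, plus strand) an E-box from base 109. The windows of Ghr (chr15:3583303-3583602, minus strand), Igf1 (chr10:87860861-87861160, plus strand) and Igfbp4 (chr11:99040994-99041293, plus strand) hold none of the 4 motifs.
Bcl6: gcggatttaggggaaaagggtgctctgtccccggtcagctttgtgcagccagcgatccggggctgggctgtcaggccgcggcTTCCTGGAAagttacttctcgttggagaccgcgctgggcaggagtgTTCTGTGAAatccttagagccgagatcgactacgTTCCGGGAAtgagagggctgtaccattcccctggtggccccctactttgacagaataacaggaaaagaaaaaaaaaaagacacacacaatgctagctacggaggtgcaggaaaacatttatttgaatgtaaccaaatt
Igfals: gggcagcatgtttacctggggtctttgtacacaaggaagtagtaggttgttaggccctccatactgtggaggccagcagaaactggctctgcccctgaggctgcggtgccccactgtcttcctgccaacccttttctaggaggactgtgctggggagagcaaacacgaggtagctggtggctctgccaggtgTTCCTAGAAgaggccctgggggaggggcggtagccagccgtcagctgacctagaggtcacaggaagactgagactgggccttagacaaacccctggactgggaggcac
Igfbp1: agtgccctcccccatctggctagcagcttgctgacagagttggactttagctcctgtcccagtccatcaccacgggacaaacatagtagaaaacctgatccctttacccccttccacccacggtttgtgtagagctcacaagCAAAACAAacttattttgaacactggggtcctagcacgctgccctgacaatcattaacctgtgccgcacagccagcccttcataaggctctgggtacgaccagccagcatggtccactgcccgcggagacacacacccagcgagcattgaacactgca
Igfbp2: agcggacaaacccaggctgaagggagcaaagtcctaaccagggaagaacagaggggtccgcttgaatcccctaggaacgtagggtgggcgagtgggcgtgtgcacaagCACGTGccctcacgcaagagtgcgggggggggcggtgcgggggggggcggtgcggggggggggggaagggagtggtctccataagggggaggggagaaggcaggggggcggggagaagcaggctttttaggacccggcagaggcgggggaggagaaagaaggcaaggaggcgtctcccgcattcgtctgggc
Ghr: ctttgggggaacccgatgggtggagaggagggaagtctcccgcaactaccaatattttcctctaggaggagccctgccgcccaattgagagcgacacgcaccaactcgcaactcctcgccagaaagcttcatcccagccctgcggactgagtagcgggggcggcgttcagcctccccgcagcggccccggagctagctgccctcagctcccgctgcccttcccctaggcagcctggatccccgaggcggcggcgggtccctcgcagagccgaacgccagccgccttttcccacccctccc
Igf1: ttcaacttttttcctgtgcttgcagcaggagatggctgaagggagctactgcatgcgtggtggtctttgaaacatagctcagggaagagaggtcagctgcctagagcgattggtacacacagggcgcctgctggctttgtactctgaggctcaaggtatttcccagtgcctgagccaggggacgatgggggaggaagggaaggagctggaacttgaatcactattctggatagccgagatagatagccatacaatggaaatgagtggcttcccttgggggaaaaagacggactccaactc
Igfbp4: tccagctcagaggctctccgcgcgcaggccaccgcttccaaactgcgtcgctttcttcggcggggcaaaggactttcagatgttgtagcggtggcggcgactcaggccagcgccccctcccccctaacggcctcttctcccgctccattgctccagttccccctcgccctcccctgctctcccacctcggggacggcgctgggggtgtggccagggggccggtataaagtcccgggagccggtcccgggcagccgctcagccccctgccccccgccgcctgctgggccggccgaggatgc

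Library totals were 6846471 to 9816124 counts, so 3 counts, the limit that a count of 0 allows, equalled 0.264 to 0.48 CPM (read counts scaled to library size with TMM factors). Hnf4a, the targeted gene of both lines, was at 556 to 658 CPM in H-KO livers and 581 to 889 CPM in H-WT livers, and the groups overlapped. Arntl was at 17.4 to 24.1 CPM in BH-KO livers and 0.421 to 0.799 CPM in BH-WT livers, so its whole-gene count was higher in BH-KO. Counts over a whole gene do not show a deletion of part of it. The HNF4A-dependent apolipoprotein gene Apoa2 was also checked, at 119 to 149 CPM in H-KO livers and 4466 to 6187 CPM in H-WT livers. Some libraries stood apart. The library labelled BH-KO replicate 1 had Hnf4a at 867 CPM and Apoa2 at 7293 CPM, while BH-KO replicates 2 and 3 had Apoa2 at 323 and 348 CPM. Among the 1365 genes more than 2-fold lower in H-KO livers, its median log2 difference from BH-WT was -0.28, against -1.53 and -1.52 in those replicates. The clock gene Npas2 was high in all 3 BH-KO livers (47.8, 37.9 and 40.4 CPM), against at most 0.368 CPM in BH-WT livers. H-WT replicate 3 had Xist at 1084 CPM and Ddx3y at 5.74 CPM, a female pattern, while the other 17 libraries had a male one. The libraries labelled BH-HF-KO had neither the high Arntl count of the BH-KO livers (0.885 to 2.54 CPM) nor the low Apoa2 of the H-KO livers (3529 to 4366 CPM), and differed from BH-HF-WT in 0 genes at an adjusted p under 0.05. Alb, the albumin gene, did follow the labels: it took 2.68 to 3.72% of counts in the libraries labelled BH-HF-KO and 6.18 to 7.71% in BH-HF-WT livers (log2 fold change -1.18 ± 0.36, edgeR unadjusted p = 0.0049, adjusted p = 1). It was also lower in H-KO livers (1.35 to 1.68%, against 6.78 to 7.74% in H-WT livers) and in all BH-KO livers (1.79 to 3.71%, the highest in replicate 1, against 6.69 to 8.48% in BH-WT livers). The Cre allele in the strain label is itself an allele of Alb, and its part in these values was not tested. Hepatocyte markers (9 of the 10 listed were in the table, none at 0) summed to 29366 to 39163 CPM in H-KO livers and 105954 to 110270 CPM in H-WT livers. Alb is among these markers, at a mean of 11491 CPM in H-KO livers and 77339 CPM in H-WT livers, as is Apoa2. In these bulk samples, fewer cells of a type and less RNA per cell cannot be told apart.

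Compared per kilobase of exon, a scale on which levels of different genes can be set beside each other, Igfbp4 and Igfbp2 led the members in every WT group. In BH-WT livers Igfbp4 led at 387 ± 62.6 CPM per kb, followed by Igfbp2 (164 ± 87.2), Igf1 (103 ± 8.16), Ghr (72.3 ± 11.3) and Igfals (39.7 ± 4.16; SD, n = 3 for each). Igfbp1 (13.4 ± 6.92) and Stat5b (12.7 ± 0.529) came next and did not differ beyond their spread. Igfbp3, Socs2 and Bcl6 stood last at means of 7.05 to 7.77 CPM per kb, with overlapping ranges. Igfbp4 was first and Igfbp2 second by their means in all 3 WT groups. In H-KO livers Igfbp2 led instead at 349 ± 56.5 CPM per kb, Igfbp4 stood at 45.4 ± 16.6, and Igf1 at 13.3 ± 2.11 was below Igfals at 29.1 ± 2.41. Igfbp2 also led in BH-KO livers by its mean of 765 ± 517 CPM per kb, but not in replicate 1, where it was at 173 and Igfbp4 at 304.

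**Figure D1:**
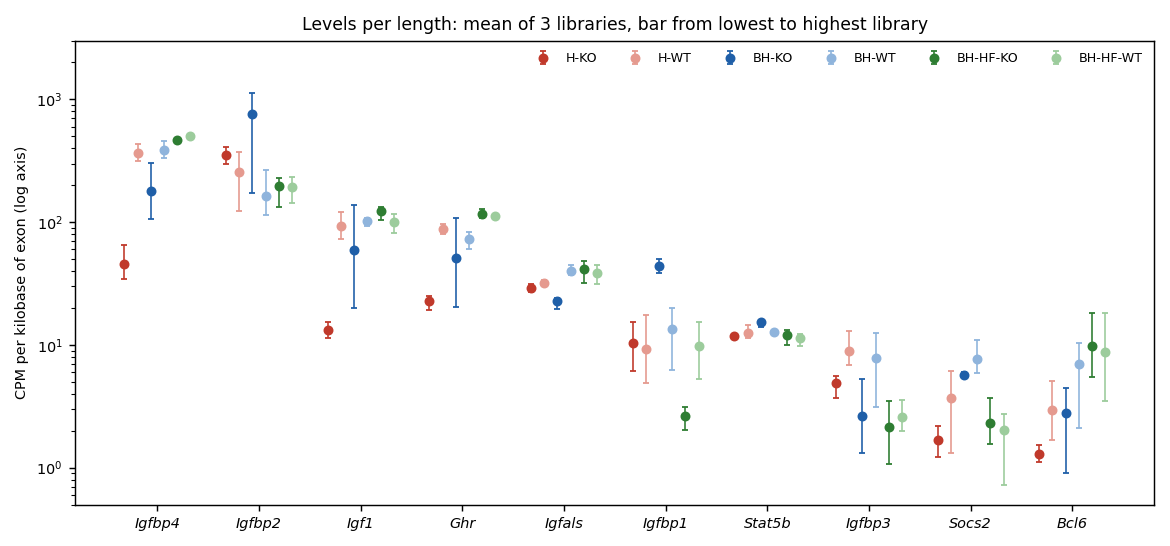
Levels of the 10 genes per kilobase of exon (vertical log axis) in each group, as the mean of 3 libraries with a bar to the lowest and highest library. Igfbp4 leads in the 3 WT groups (364, 387 and 499 CPM per kb in H-WT, BH-WT and BH-HF-WT), and Igfbp2 leads in H-KO at 349.

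The first comparison asked how the axis differs in the KO livers of the line with the Hnf4a allele alone. The receptor gene Ghr, its output Igf1 and the carrier gene Igfbp4 fell in H-KO livers, while Stat5b, Igfals, Igfbp1 and Igfbp2 overlapped between the groups. Of the 10 members, 3 passed, 0 higher and 3 lower, at an adjusted p under 0.05 (quasi-likelihood test of edgeR, Benjamini-Hochberg adjustment over all genes tested). In the same comparison 34.9% of all genes tested passed, 15.8% higher and 19.1% lower, so the members' share is near that of all genes. The median log2 fold change of the 10 members was -1.01, beside 0 over all genes. Upper-quartile scaling moved the median of all genes to 0.15 in H-KO livers and 0.11 in BH-KO livers, and 61.8% of the H-KO calls were then higher, against 45.4% with TMM. The members' calls in H-KO livers kept their direction under it.

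Ghr, at chr15:3317760-3583492 on the minus strand of mm10, was at 209.8, 176 and 228 CPM in H-KO livers and at 789.7, 875 and 718 CPM in H-WT livers. All H-KO libraries lay below all H-WT libraries, by a log2 fold change of -1.96 ± 0.45 (SE; edgeR adjusted p = 0.00389). Igf1, at chr10:87858265-87937042 on the plus strand, was at 129.9, 112 and 154 CPM in H-KO livers and at 715, 853 and 1204 CPM in H-WT livers. Its groups were also apart, with a log2 fold change of -2.81 ± 0.58, or 7.01-fold lower in H-KO (edgeR adjusted p = 0.00183). The annotated antisense gene Igf1os shares 0 exon bases with Igf1 and had at most 40 counts in a library. Igfbp4 (chr11:99041244-99054392, plus strand), whose product binds IGFs and can hold them from their receptor, had 285, 151 and 166 CPM in H-KO livers and 1501, 1399 and 1919 CPM in H-WT livers. This was the largest change among the members, a log2 fold change of -3 ± 0.35 (edgeR adjusted p = 2.86e-05). These 3 calls held when any 1 H-KO or H-WT library was left out. When H-WT replicate 3 (female by Xist) was left out, 3 members still passed (27.9% of all genes), at log2 fold changes of -2.03 for Ghr, -2.58 for Igf1 and -2.85 for Igfbp4. Of 9 hepatocyte markers tested, 4 were lower in H-KO and 0 higher, beside 19.1% of all genes lower and 34.9% in either direction. The median log2 fold change of these markers was -1.39, and their part in the result was not tested. Of 6 cholangiocyte markers tested, 4 were higher in H-KO livers and 0 lower, beside 15.8% of all genes higher. The summed level of that list was 116 to 180 CPM in H-KO livers and 33.6 to 60.1 CPM in H-WT livers. The mitochondrial share of counts was 4.46 to 5.18% in H-KO livers and 7.42 to 8.54% in H-WT livers, and its part was not tested.

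Signal transducers and feedback genes showed no call in H-KO livers. Stat5b was at 63, 67.6 and 67.8 CPM in H-KO livers and 66.2, 80 and 62.6 CPM in H-WT livers. Its log2 fold change was -0.07, with a 95% interval of -0.34 to 0.19 (0.08 with upper-quartile scaling). Socs2, the feedback inhibitor of the growth hormone receptor, was at 15.4, 11.6 and 20.9 CPM in H-KO livers and 12.6, 34.8 and 58.7 CPM in H-WT livers. The H-WT libraries spread widely and overlapped H-KO through replicate 1 alone (log2 fold change -1.15 ± 0.55, edgeR adjusted p = 0.121). Leaving out H-WT replicate 1 gave an adjusted p of 0.0332 by edgeR. Bcl6 lay lower in all H-KO livers (10.2, 8.22 and 7.5 CPM) than in H-WT livers (34, 14 and 11.3 CPM) but did not pass (edgeR adjusted p = 0.289). Reads of Bcl6 and of Gm37419, a gene on the opposite strand that shares 21 exon bases with it, could not be told apart there, and Gm37419 had at most 5 counts in a library.

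The remaining carriers did not pass in H-KO livers. Igfals was at 91.2, 85 and 100.1 CPM in H-KO livers and 106, 99.3 and 95.7 CPM in H-WT livers. The 95% interval of its log2 difference was -0.46 to 0.21, while Igf1 in the same livers was 7.01-fold lower. Igfbp1 was at 14.7, 23.5 and 9.36 CPM in H-KO livers and 26.5, 7.53 and 8.12 CPM in H-WT livers, with a 95% interval of -0.98 to 1.32. Igfbp2 was at 555, 759 and 623 CPM in H-KO livers and 229, 494 and 688 CPM in H-WT livers, and the groups overlapped. Igfbp3, which endothelial and Kupffer cells express in liver, was at 17.1, 17.4 and 11.6 CPM in H-KO livers and 22.5, 40.4 and 21.4 CPM in H-WT livers. Those groups did not overlap, yet the difference did not pass (log2 fold change -0.87 ± 0.56, edgeR adjusted p = 0.246). A fit of only the compared groups gave an adjusted p of 0.041 by edgeR.

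**Figure D2:**
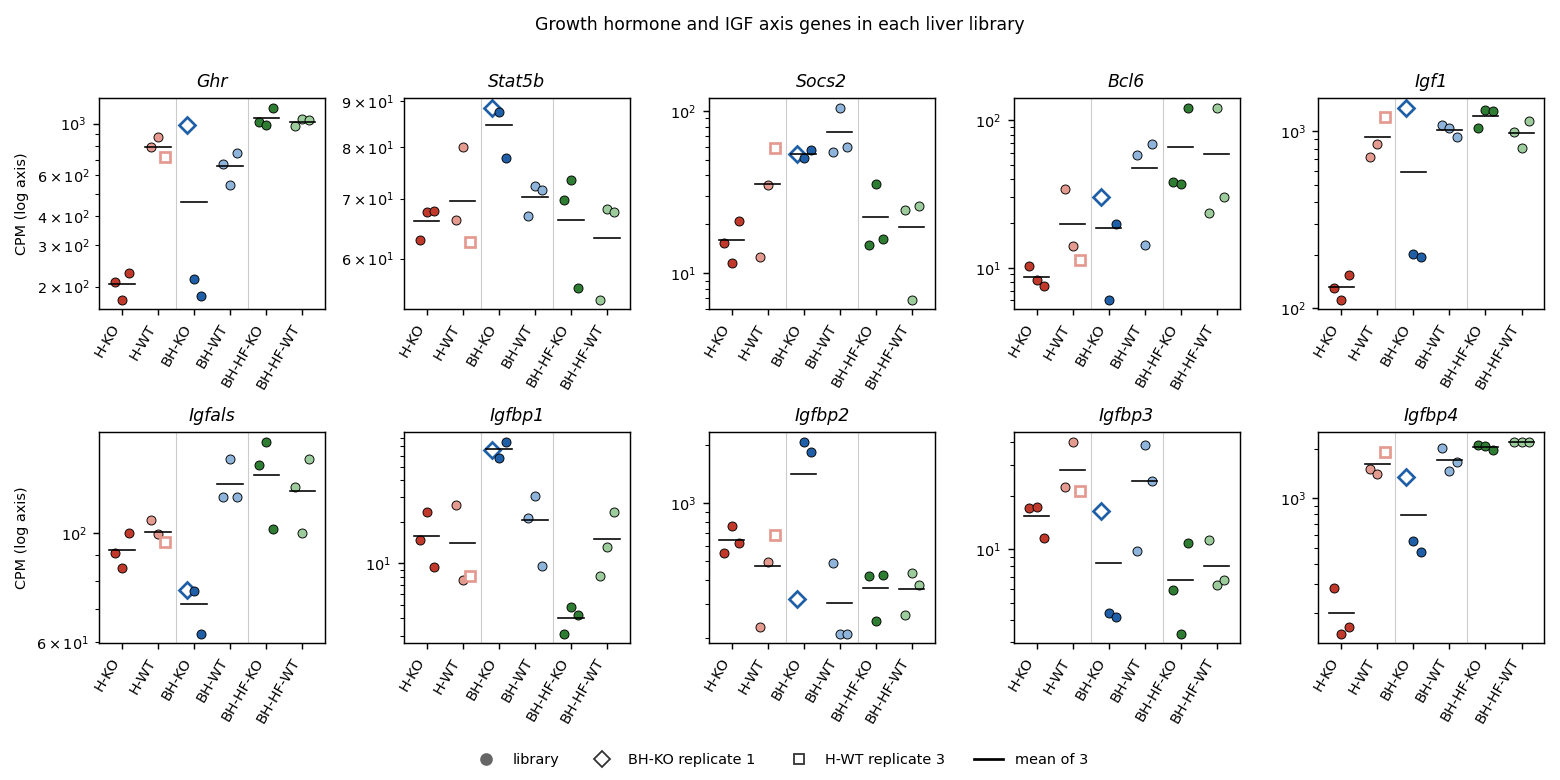
CPM of each member (vertical log axis, 1 panel per gene) in every library, with the mean of 3 as a line. Igf1 lies at 112 to 154 CPM in H-KO livers and 715 to 1204 CPM in H-WT livers, and the library labelled BH-KO replicate 1 (open diamond) sits apart from the other BH-KO livers for Ghr, Igf1, Igfbp2, Igfbp3 and Igfbp4, but not for Igfals or Igfbp1.

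The second comparison asked the same of the KO livers of the line with both conditional alleles. With all 3 BH-KO livers, Igfbp1 and Igfbp2 were higher and Igfals and Igfbp4 lower, so 4 of the 10 members passed. Among all genes tested 28.6% passed, 14.3% higher and 14.3% lower. The library labelled BH-KO replicate 1 split the members. In it Ghr and Igf1 lay above every BH-WT liver, Igfbp2 and Igfbp3 lay within the BH-WT range, and Igfbp4 lay closer to that range than in replicates 2 and 3, whereas Igfals and Igfbp1 were displaced in all 3 BH-KO livers. Without that library 7 members passed, 2 higher and 5 lower, against 41% of all genes tested (19.5% higher and 21.6% lower). That split was described after the values were seen.

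Igfbp1 (chr11:7197782-7202546, plus strand) was at 65.8, 58.2 and 75.9 CPM in BH-KO livers and 21.2, 30.6 and 9.59 CPM in BH-WT livers. Every BH-KO liver, replicate 1 included, exceeded every BH-WT liver, by a log2 fold change of 1.69 ± 0.51, or 3.23-fold (edgeR adjusted p = 0.0254). The size was alike without BH-KO replicate 1 (log2 fold change 1.70 ± 0.58, edgeR adjusted p = 0.0326). The call was lost without BH-KO replicate 2 (edgeR adjusted p = 0.05, at the threshold), BH-KO replicate 3 (0.0728), BH-WT replicate 1 (0.0651) or BH-WT replicate 3 (0.0895). Igfals (chr17:24865997-24882010, plus strand) was at 76.6, 76.1 and 62.5 CPM in BH-KO livers and 118, 141 and 118 CPM in BH-WT livers. The groups were apart, at a log2 fold change of -0.81 ± 0.15, or 1.76-fold lower in BH-KO (edgeR adjusted p = 0.00148). No library, when left out, ended that call, and without BH-KO replicate 1 the value was -0.86 ± 0.17. In this pair the gene for the subunit that completes the circulating IGF-1 complex fell in the same 3 livers in which the insulin-repressed carrier gene rose.

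Igfbp2 (chr1:72824503-72852474, plus strand) was at 319.6, 2085 and 1833 CPM in BH-KO livers and 490.1, 211 and 211 CPM in BH-WT livers. BH-KO replicates 2 and 3 were far above all BH-WT livers and replicate 1 was within them. The log2 fold change was 2.22 ± 0.58 (edgeR adjusted p = 0.0123), and 2.69 ± 0.44 without BH-KO replicate 1 (edgeR adjusted p = 0.000324). The call was lost without BH-KO replicate 2 (edgeR adjusted p = 0.0556), BH-WT replicate 2 (0.0535) or BH-WT replicate 3 (0.0511), and 0.106 was the adjusted p in a fit of these groups alone. Igfbp4 was at 1342, 554 and 472 CPM in BH-KO livers and 2006, 1459 and 1667 CPM in BH-WT livers. All BH-KO values were lower, by a log2 fold change of -1.12 ± 0.33 with 3 livers (edgeR adjusted p = 0.0197) and -1.74 ± 0.24 without replicate 1 (edgeR adjusted p = 3.59e-05). That call was lost without BH-KO replicate 2 (edgeR adjusted p = 0.0918), BH-KO replicate 3 (0.0893) or BH-WT replicate 1 (0.0625), and in a fit of these groups alone (0.14).

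Ghr and Igf1 depended on the replicate, as did the mitochondrial share of counts (9.45, 3.7 and 4.17% in BH-KO livers, and 7.2 to 7.66% in BH-WT livers), whose part was not tested. Ghr was at 989, 216 and 183 CPM in BH-KO livers and 669.7, 546 and 749 CPM in BH-WT livers, so replicate 1 was above all BH-WT livers and the others below. With all libraries the log2 fold change was -0.50 ± 0.44 (edgeR adjusted p = 0.408), and without BH-KO replicate 1 it was -1.72 ± 0.17 (edgeR adjusted p = 8.37e-07). Igf1 was at 1364, 202 and 196 CPM in BH-KO livers and 1080, 1046 and 927 CPM in BH-WT livers, with the same split. Its log2 fold change was -0.79 ± 0.54 with all libraries (edgeR adjusted p = 0.284) and -2.36 ± 0.23 without replicate 1 (edgeR adjusted p = 7.36e-07). Igfbp3 (chr11:7206086-7213923, minus strand) was at 16.5, 4.37 and 4.14 CPM in BH-KO livers and 9.82, 38.7 and 24.3 CPM in BH-WT livers. It did not pass with all libraries (log2 fold change -1.60 ± 0.59, edgeR adjusted p = 0.0547) and passed without BH-KO replicate 1 (-2.51 ± 0.58, edgeR adjusted p = 0.00423) or without BH-WT replicate 1 (edgeR adjusted p = 0.0261). With all libraries, 14.3% of all genes were higher and 14.3% lower in BH-KO, the shares beside which the following marker counts stand. Of 11 macrophage markers, 9 were lower in BH-KO and 0 higher. Their summed level was 55.8 to 162 CPM in BH-KO livers and 198 to 1254 CPM in BH-WT livers, while Igfbp3 in replicate 1 lay within the BH-WT range. Of 11 endothelial markers 3 were lower and 0 higher, with sums of 130.1 to 155 CPM in BH-KO livers and 125 to 299 CPM in BH-WT livers, and none of either list was at 0. The part of these cells in the Igfbp3 values was not tested. Of 9 hepatocyte markers 1 was higher and 1 lower in BH-KO (median log2 fold change -0.37). Their sums were 40470 to 92655 CPM in BH-KO livers and 106125 to 137361 CPM in BH-WT livers, with Alb alone averaging 24954 and 85226 CPM. Cholangiocyte markers were higher for 2 of 6 and lower for 0, with sums of 105 to 354 CPM in BH-KO livers and 40.6 to 84.2 CPM in BH-WT livers. The part of either in the members' changes was not tested.

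Stat5b, Socs2 and Bcl6 did not pass in BH-KO livers, with or without replicate 1. Stat5b (chr11:100780731-100850724, minus strand) was at 88.5, 87.5 and 77.8 CPM in BH-KO livers and 66.9, 72.4 and 71.6 CPM in BH-WT livers. The groups were apart but close (log2 fold change 0.27 ± 0.12, edgeR adjusted p = 0.115), and upper-quartile scaling gave an adjusted p of 0.0378 by edgeR. Socs2 (chr10:95385362-95417180, minus strand) was at 54.1, 51.4 and 57.2 CPM in BH-KO livers and 56.1, 105 and 59.9 CPM in BH-WT livers. Its 3 BH-KO values lay just under the BH-WT range apart from replicate 3, and the groups overlapped. Bcl6 (chr16:23965052-23988852, minus strand) was at 30, 6.09 and 19.7 CPM in BH-KO livers and 58.4, 14.2 and 68.7 CPM in BH-WT livers, an overlapping and wide spread.

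**Figure D3:**
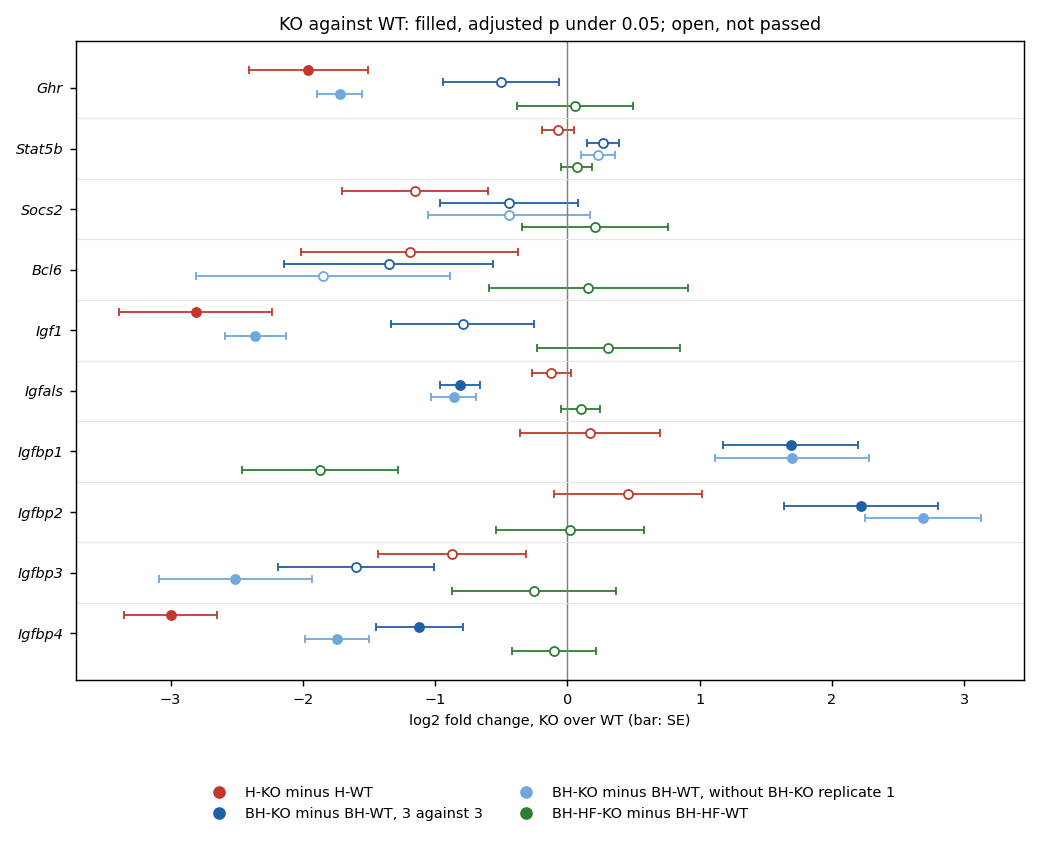
Log2 fold change of KO over WT (horizontal axis, bars are the SE) for each member in the 3 comparisons and in the BH comparison without the library labelled BH-KO replicate 1; filled points passed an adjusted p under 0.05. Igf1 is at -2.81 in H-KO, -0.79 in BH-KO with 3 livers and -2.36 with 2, and 0 of 10 points are filled in BH-HF-KO.

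The test of the difference between the lines' KO effects found Igfbp4 alone among the members, against 6.06% of all genes. Its fall was smaller in the BH line, by 1.88 ± 0.46 on the log2 scale (edgeR adjusted p = 0.027). Leaving out BH-KO replicate 1 took the difference to 1.26 ± 0.30 (edgeR adjusted p = 0.019) and let Igfbp2 pass as well, at 2.23 ± 0.59 (edgeR adjusted p = 0.034), while 8.65% of all genes passed. The Igfbp4 call was lost without H-KO replicate 2 (edgeR adjusted p = 0.0778), H-KO replicate 3 (0.0708), H-WT replicate 3 (0.0631, with 3.45% of all genes passing), BH-WT replicate 2 (0.074) or BH-WT replicate 3 (0.0556). Igfals (-0.69 ± 0.22, edgeR adjusted p = 0.0686) and Igfbp1 (1.52 ± 0.73, edgeR adjusted p = 0.229) passed the test in BH-KO livers and not in H-KO livers, but their difference between the lines did not pass. Upper-quartile scaling gave the Igfals difference an adjusted p of 0.0467, and DESeq2 gave 0.0355. The differences for Igf1 (2.01 ± 0.77, edgeR adjusted p = 0.13) and Ghr (1.45 ± 0.62, edgeR adjusted p = 0.171) did not pass either. Without BH-KO replicate 2 the adjusted p for Igf1 was 0.0435 by edgeR, and without BH-KO replicate 3 it was 0.0413 for Igf1 and 0.047 for Ghr.

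At 45 weeks and after the high-fat diet, 0 of 10 members passed between libraries labelled BH-HF-KO and BH-HF-WT livers, and 0% of all genes did. At an unadjusted p under 0.05 there were 1 member and 490 genes by edgeR, and DESeq2 and limma-voom also called 0 genes. Ghr was at 1019, 981 and 1171 CPM in the libraries labelled BH-HF-KO and 972, 1045 and 1032 CPM in BH-HF-WT livers. The 95% interval of its log2 difference, from the spread shared by all 18 libraries, was -0.90 to 1.01. Igf1 was at 1044, 1329 and 1297 CPM in the libraries labelled BH-HF-KO and 998, 806 and 1149 CPM in BH-HF-WT livers, with an interval of -0.86 to 1.48. Igfbp4 was nearly level at 2102, 2077 and 1974 CPM in the libraries labelled BH-HF-KO and 2207, 2200 and 2200 CPM in BH-HF-WT livers. The Igfbp4 groups did not overlap, but their log2 difference was only -0.10 ± 0.32 (edgeR adjusted p = 1). Igfbp1 was the member with the small unadjusted p. It was at 3.1, 4.8 and 4.2 CPM in the libraries labelled BH-HF-KO and 8.08, 13.1 and 23.6 CPM in BH-HF-WT livers. All 3 were below all BH-HF-WT livers, at a log2 fold change of -1.87 ± 0.59 with an unadjusted p of 0.00715 by edgeR and an adjusted p of 1. Of 9 hepatocyte markers 0 passed (median log2 fold change -0.02). Their sum was 71704 to 83870 CPM in the libraries labelled BH-HF-KO and 114222 to 137210 CPM in BH-HF-WT livers. Alb alone averaged 34986 CPM in the libraries labelled BH-HF-KO and 79057 CPM in BH-HF-WT livers.

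The difference between libraries labelled BH-HF-KO and BH-HF-WT livers was also set against that between BH-KO and BH-WT livers, and 2 members passed this test, against 6.1% of all genes. The fold change of Igfbp1 was lower in the older, high-fat setting (log2 difference -3.56 ± 0.78, edgeR adjusted p = 0.0183). That call was lost without the library labelled BH-HF-KO replicate 1 (edgeR adjusted p = 0.0555). The fold change of Igfals was higher there by 0.92 ± 0.22 on the log2 scale (edgeR adjusted p = 0.0216). It was lost without BH-KO replicate 3 (edgeR adjusted p = 0.0657), BH-WT replicate 2 (0.0503), BH-HF-KO replicate 1 (0.0561) or 2 (0.0535), or BH-HF-WT replicate 2 (0.054). Without BH-KO replicate 1, 6 members passed, against 21.1% of all genes: Ghr, Igf1, Igfals and Igfbp4 with a higher fold change in the older setting, and Igfbp1 and Igfbp2 with a lower one. Igf1 differed most clearly there, by 2.67 ± 0.29 (edgeR adjusted p = 5.35e-06).

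Among WT livers, 0 of 10 members passed between BH-WT and H-WT, against 0.165% of all genes. By edgeR 1 member, Igfals, had an unadjusted p under 0.05, as did 1301 of the 13958 genes tested. Igfals was at 118, 141 and 118 CPM in BH-WT livers and 106, 99.3 and 95.7 CPM in H-WT livers (log2 fold change 0.33 ± 0.15, edgeR adjusted p = 0.53). BH-HF-WT and BH-WT livers differ together in age, diet and time since the age at tamoxifen (37 weeks, against 2 in BH-WT). Between them Socs2 alone passed, against 7% of all genes. Socs2 was at 24.6, 6.87 and 26.1 CPM in BH-HF-WT livers and 56.1, 105 and 59.9 CPM in BH-WT livers, and the groups did not overlap. Its log2 fold change was -1.95 ± 0.55 (edgeR adjusted p = 0.0491). Leaving out any 1 of these 6 libraries lost the call: the edgeR adjusted p was 0.0547, 0.206 and 0.0736 without BH-WT replicates 1, 2 and 3, and 0.0791, 0.163 and 0.0899 without BH-HF-WT replicates 1, 2 and 3. Without BH-KO replicate 1, which shares the fit, 3 members passed against 12.3% of all genes: Ghr higher (0.64 ± 0.14, edgeR adjusted p = 0.0101), Socs2 lower (edgeR adjusted p = 0.0482) and Igfbp3 lower (edgeR adjusted p = 0.0485). The comparisons with BH-WT share those 3 libraries.

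Of 30 further genes of growth hormone and IGF signalling, 24 had enough counts to be tested. In H-KO livers the list had a median log2 fold change of -0.20, beside 0 over all genes. In it 5 genes were lower and 0 higher (20.8%), against 19.1% of all genes lower and 34.9% in either direction. These were Insr, the insulin receptor gene, Irs1 and Irs2, the adaptors of the insulin and IGF-1 receptors, and Grb14 and Sh2b1, adaptors that bind such receptors or JAK2. Irs1 was at 8.43, 4.76 and 4.97 CPM in H-KO livers and 16.8, 15.6 and 11.1 CPM in H-WT livers (log2 fold change -1.25 ± 0.32, edgeR adjusted p = 0.00658). Irs2 was at 13.6, 8.86 and 10.9 CPM in H-KO livers and 27.9, 18.9 and 45.7 CPM in H-WT livers (-1.46 ± 0.42, edgeR adjusted p = 0.0148), and did not pass without H-KO replicate 2 (edgeR adjusted p = 0.0599) or H-WT replicate 3 (0.0797). In BH-KO livers 4 were lower and 1 higher (median -0.36, beside 0.03 over all genes), and 7 were lower and 1 higher without replicate 1. These are 20.8% of the list against 28.6% of all genes, and 33.3% against 41%. Igfbp5, another IGF carrier gene, was at 30.6, 9.89 and 8.2 CPM in BH-KO livers and 55, 52.7 and 49.6 CPM in BH-WT livers. It fell by 1.73 on the log2 scale with an SE of 0.46 (edgeR adjusted p = 0.0145), and lost the call without BH-KO replicate 2 (edgeR adjusted p = 0.0676) or 3 (0.062). Ptpn6, a phosphatase gene of haematopoietic cells that acts on JAK kinases, was at 14, 9.41 and 11.3 CPM in BH-KO livers and 14.2, 31.7 and 24.6 CPM in BH-WT livers (-1.04 ± 0.24, edgeR adjusted p = 0.00558), beside the lower macrophage markers. In a fit of these groups alone the edgeR adjusted p was 0.0853 for Igfbp5 and 0.0871 for Ptpn6. In the libraries labelled BH-HF-KO 0 of the 24 passed, and Irs1 had the smallest p (unadjusted p = 0.05 by edgeR).

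Sex-biased liver genes are known as a readout of the growth hormone pattern. Of 26 male-biased genes tested, 15 were lower and 0 higher in H-KO livers, with a median log2 fold change of -3.40 beside 0 over all genes. That was 57.7% of the list, all lower, against 19.1% of all genes lower and 34.9% in either direction. Cyp4a12a, a male-biased fatty acid hydroxylase gene, was at 1.2, 0.324 and 2.63 CPM in H-KO livers and 491, 583 and 33.3 CPM in H-WT livers (log2 fold change -8.02 ± 1.63, edgeR adjusted p = 0.002). The lowest H-WT value was that of replicate 3, and without it the log2 fold change was -8.56. Of 33 female-biased genes tested, 3 were higher and 8 lower in H-KO livers (median -0.96), but 9 were higher and 1 lower without H-WT replicate 3 (median 1.31). These were 33.3% of the list against 34.9% of all genes, and 30.3% against 27.9% without H-WT replicate 3. The direction of this list thus turned with that library. Cyp17a1, the female-biased steroid hydroxylase gene, was at 337, 336 and 396 CPM in H-KO livers and 9.57, 4.2 and 41.6 CPM in H-WT livers (4.28 ± 0.88, edgeR adjusted p = 0.00221; 5.69 ± 0.96 without H-WT replicate 3). In BH-KO livers 1 male-biased gene was higher and 2 lower (median -0.16), or 11.5% of the list against 28.6% of all genes. Without replicate 1, 0 were higher and 11 lower (median -1.98). That was 42.3% of the list, all lower, against 21.6% of all genes lower and 41% in either direction. Of the female-biased genes there, 3 were higher and 6 lower (median -0.81), and 3 were higher and 3 lower without replicate 1 (median -1.67). These were 27.3% of the list against 28.6% of all genes, and 17.6% against 41% without replicate 1. In the libraries labelled BH-HF-KO 0 of either list passed. Counts of near-identical Mup, Cyp2c and Cyp3a genes are uncertain, since how reads matching several places were counted is not known from the sources used.

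Between BH-HF-WT and BH-WT livers, 7 male-biased genes were higher and 0 lower (median log2 fold change 2.02), and 1 female-biased gene was higher and 14 lower (median -3.39), beside -0.02 over all genes. That was 26.9% of the male-biased and 45.5% of the female-biased list, against 7% of all genes. Cux2, a female-biased transcription factor gene of liver, was named after its values were seen. It was at 0.385, 0.5 and 0.573 CPM in BH-HF-WT livers and 55.3, 119.9 and 48.1 CPM in BH-WT livers, although Ddx3y (115 to 127 CPM) and Xist (at most 0.421 CPM) in BH-WT livers had the male pattern. In H-KO livers, male by Xist and Ddx3y, Cux2 was at 48.7, 67.7 and 91.3 CPM, and in H-WT livers at 0.133 and 0.988 CPM in replicates 1 and 2 and 79 CPM in replicate 3. It was at 2.67, 25.3 and 25.7 CPM in BH-KO livers. Without H-WT replicate 3, BH-WT livers exceeded H-WT livers by a log2 fold change of 6.98 ± 1.03 (edgeR adjusted p = 0.0191). Igf1, Ghr and Igfbp4 did not pass between BH-HF-WT and BH-WT livers. Bcl6 reached 122 CPM in replicate 3 of the libraries labelled BH-HF-KO and 122 CPM in BH-HF-WT replicate 2. The feedback gene Cish, also named after its values were seen, had its lowest values of that setting in the same libraries: 39.2, 42.7 and 2.38 CPM in the libraries labelled BH-HF-KO, and 23.2, 0.874 and 36.8 CPM in BH-HF-WT livers.

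**Figure D4:**
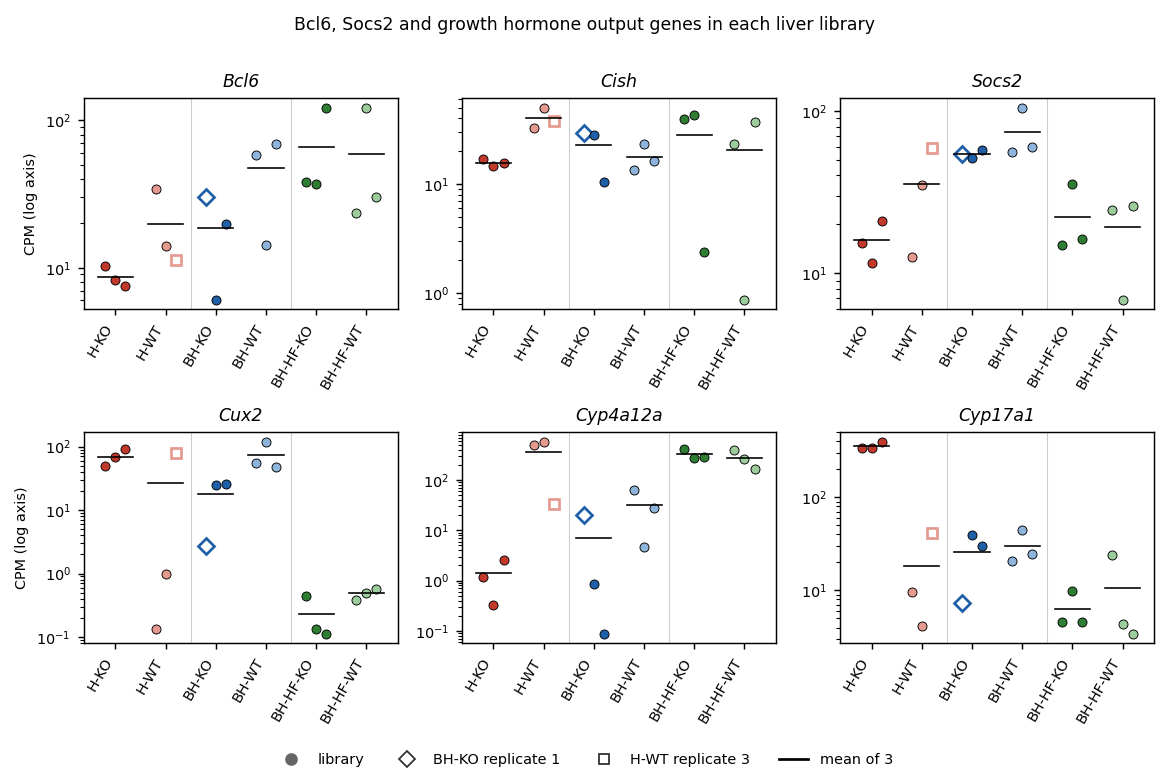
CPM (vertical log axis) of Bcl6, Socs2, Cish, Cux2, Cyp4a12a and Cyp17a1 in every library, with the mean of 3 as a line. Cux2 is at 0.385 to 0.573 CPM in BH-HF-WT livers and 48.1 to 119.9 CPM in BH-WT livers, and H-WT replicate 3 (open square) is at 79 CPM.

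Insulin-repressed and fasting genes were listed because Igfbp1 is usually counted among them. Of 12 such genes, 2 were higher and 6 lower in H-KO livers (median log2 fold change -0.70; 1 higher and 3 lower without H-WT replicate 3), and 2 were higher and 2 lower in BH-KO livers (median -0.16). That was 66.7% of the list in H-KO livers, against 34.9% of all genes, and 33.3% in BH-KO livers, against 28.6%. Without H-WT replicate 3 the share in H-KO livers was 33.3%, against 27.9% of all genes. Pdk4, which restrains pyruvate oxidation in fasting, was at 10.5, 110.2 and 77.6 CPM in BH-KO livers and 3.37, 3.06 and 1.12 CPM in BH-WT livers (4.69 ± 0.77, edgeR adjusted p = 0.000814). Foxo3 was lower in the KO livers of both lines, at 19.9, 25 and 22.6 CPM in H-KO livers against 60.5, 68 and 80.5 CPM in H-WT livers, and at 32.7, 23.7 and 24.9 CPM in BH-KO livers against 70.7, 60.7 and 72.6 CPM in BH-WT livers. The edgeR adjusted p was 5.56e-06 in H-KO livers and 2.58e-05 in BH-KO livers. ATF4 targets are genes of the amino acid stress response, in which Igfbp1 is also known to be induced. In H-KO livers 6 of 13 were higher and 1 lower (median 1.17), and 3 were higher and 0 lower without H-WT replicate 3. In BH-KO livers 2 were higher and 1 lower (median 0.09). The share of the list that passed was 53.8% in H-KO livers and 23.1% in BH-KO livers, beside 34.9% and 28.6% of all genes. Without H-WT replicate 3 it was 23.1% in H-KO livers, beside 27.9% of all genes. Whether either list bears on the Igfbp1 values was not tested. In the libraries labelled BH-HF-KO 0 of either list passed.

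The genes whose levels were most like a member's over the 18 libraries were found by Pearson's r of log2 CPM among 9774 genes, as a description with no test. Those most like Igf1 were Enpp3 (r = 0.989), F10 (0.987), F13b (0.986) and Cyp4f14 (0.984). Gckr was the gene most like Igfbp2 (r = 0.893), and Rnf144a the one most like Igfbp1, at a lower r of 0.827. The libraries share their groups, so such values rest on the group differences given above.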

How the data were processed

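RNA-seq was performed on 18 mouse livers in 6 groups of 3. The deposited table holds raw read counts per gene, which the authors made from reads aligned with STAR 2.6 to mm10, per the submitters' processing notes. Counting tool, annotation and strand use: not given in the sources used here. Of 52636 genes, 22756 had no count, and 13958 passed the filter of edgeR (filterByExpr, minimum count 10).

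Counts were scaled by TMM (factors 0.83 to 1.38) and fitted with 1 mean per group in edgeR 4.0.16 (R 4.3.3; robust quasi-likelihood test, two-sided, 12 residual degrees of freedom). P-values were adjusted by Benjamini-Hochberg over all genes tested, with a threshold of 0.05. Values are CPM with the SD of 3 livers, and intervals of log2 fold changes are 95% intervals from the SE. The p-values measure the spread between livers of a group, which the labels name as separate samples, estimated per gene over all 18 libraries. A wide group thus enters the SE and interval of comparisons that it is not part of. For Ghr the SD was 456 CPM in BH-KO livers, 100.4 CPM in the libraries labelled BH-HF-KO and 38.9 CPM in BH-HF-WT livers. Intervals and the limit of 3 counts cover the counting and replicate error of these libraries only.

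The members and gene lists were chosen with earlier results of these data known. Named genes were all 10 members and, per list and KO comparison, up to 2 largest rises and 2 largest falls among genes that passed, with a mean of at least 5 CPM in 1 group and no overlap, or the gene of smallest p where none passed; those given with values were taken from these. Likeness used the same minimum. Alternatives were DESeq2 1.42.0 factors and test, upper-quartile factors, no filter, a filter of 1 CPM in 3 libraries, limma 3.58.1 (voom), a replicate block, a fit of only the groups compared, and leaving out each library. Exon lengths and coordinates are from GENCODE on mm10. No 2 libraries had identical counts (highest r between libraries 0.9851). A gene that the naming rule selects is not reported here.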

Additional observations from a re-analysis of the deposited data

Results flagged for a closer look

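The KO effect on Igfbp4 differed between the lines by a test of the difference itself: it was 1.88 ± 0.46 higher on the log2 scale in the BH line than in the H line (edgeR's quasi-likelihood test, adjusted p = 0.027). Igfbp4 was 7.99-fold lower in H-KO than in H-WT livers and 2.17-fold lower in BH-KO than in BH-WT livers. Without the library labelled BH-KO replicate 1 it was 3.34-fold lower in BH-KO livers, and the difference between the lines was 1.26 ± 0.30 (edgeR adjusted p = 0.019). The call was lost without H-KO replicate 2 (edgeR adjusted p = 0.0778), H-KO replicate 3 (0.0708), H-WT replicate 3 (0.0631), BH-WT replicate 2 (0.074) or BH-WT replicate 3 (0.0556).

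Between the high-fat BH setting at 45 weeks and the BH setting at 10 weeks, the difference between livers labelled KO and WT was 0.92 ± 0.22 higher for Igfals on the log2 scale (edgeR adjusted p = 0.0216) and differed for Igfbp1 by -3.56 ± 0.78 (edgeR adjusted p = 0.0183). Igfbp1 was higher in all 3 BH-KO livers than in BH-WT livers and lower in all 3 libraries labelled BH-HF-KO than in BH-HF-WT livers. The call for Igfbp1 was lost without the library labelled BH-HF-KO replicate 1, and that for Igfals without any of 5 single libraries. The libraries labelled BH-HF-KO did not show the Arntl rise of BH-KO livers, and age, diet and time since tamoxifen differ together between the settings. The parts of these in the differences cannot be told apart.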

How the results depend on the processing

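Of the members' values under the alternatives, 1060 kept their direction and their side of the threshold, 38 lost a call, 30 gained one and 42 changed sign, with neither value past the threshold in those 42. The Ghr, Igf1 and Igfbp4 calls in H-KO livers and the Igfals call in BH-KO livers held under every alternative run. The cause of the changes below was not tested.

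Upper-quartile factors gave log2 fold changes of 0.08 for Stat5b and 0.03 for Igfals in H-KO livers. They gave 2 members differing between the lines, with 822 of all genes, against 846 in the main fit. With no filter, 4154 genes passed in H-KO livers (against 4871), with 5 female-biased and 5 insulin and fasting genes. In BH-KO livers 3067 genes passed (against 3990), with 2 members and 4 female-biased genes. Between the lines 0 members and 516 genes differed (against 846 genes). Between BH-HF-WT and BH-WT 0 members and 681 genes passed (against 977 genes). The BH-HF-KO value of Igfbp2 was 0. The adjusted p without a filter was 0.0714 for Igfbp1 and 0.057 for Igfbp4 in BH-KO livers. The filter of 1 CPM gave 0 members between BH-HF-WT and BH-WT, with 968 of all genes. DESeq2 gave 2 members between the lines (1400 genes, against 846) and 2 between BH-HF-WT and BH-WT (1495 genes, against 977). DESeq2 also called Igfbp3 in BH-KO livers (adjusted p = 0.0213), as did limma-voom (0.0297). With limma-voom, 9 male-biased and 4 female-biased genes passed in H-KO livers, and 1 and 4 in BH-KO livers. Of all genes, 4851 passed in H-KO livers and 4186 in BH-KO livers by limma-voom.

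The replicate numbers did not pair the samples (correlations of deviations from -0.17 to 0.04; 1, 0 and 1 of 3 livers were closest to their own number in the H, BH and BH-HF pairs). With the replicate block, 4649, 3665 and 0 genes passed in H-KO, BH-KO and BH-HF-KO comparisons, against 4871, 3990 and 0 without it. Under the block 7 female-biased genes passed in H-KO livers, and the BH-HF-KO value of Bcl6 was -0.06. Between BH-HF-WT and BH-WT 0 members passed under it, with 738 of all genes. A fit of only the groups compared called 1096 genes in BH-KO livers against 3990, with 2 members, 0 other growth hormone and IGF genes and 0 male-biased genes; 5 female-biased genes passed in H-KO livers, 0 members differed between the lines (498 genes against 846) and 1 between the settings (431 against 851).

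Leaving out both libraries that stand apart, an alternative chosen after seeing the data, gave 6198 genes in BH-KO livers, with 7 members, 9 other growth hormone and IGF genes, 14 male-biased and 17 female-biased genes. It also gave 5 insulin and fasting genes in H-KO livers (4971 of all genes). Between the settings 6 members differed (3327 genes), and 2 members passed between BH-HF-WT and BH-WT (2118 genes). Log2 fold changes were -0.11 for Igfbp1 in H-KO livers and -0.06 for Stat5b between BH-WT and H-WT.

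Leaving out 1 library at a time, the number passing in H-KO livers was 3787 to 4284 for all genes. It was 9 to 15 for male-biased and 5 to 12 for female-biased genes. It was 4 to 6 for insulin and fasting genes and 3 to 7 for ATF4 targets. In BH-KO livers it was 2 to 7 for members, 3 to 8 for other growth hormone and IGF genes, 2 to 11 for male-biased and 4 to 8 for female-biased genes, and 2330 to 5916 for all genes. Members differing between the lines numbered 0 to 3, against 344 to 1247 of all genes. Those differing between the settings numbered 0 to 6, against 353 to 3046 of all genes. Between BH-HF-WT and BH-WT 0 members passed without any 1 library of these groups, against 225 to 1014 of all genes. Log2 fold changes ran, in H-KO livers, from -0.15 to 0.03 for Stat5b and -0.23 to 1.01 for Igfbp1, and the Bcl6 difference between the lines from -0.80 to 0.27. Between BH-WT and H-WT they ran from -0.06 to 0.12 for Stat5b, -0.02 to 0.38 for Igf1, -0.73 to 0.17 for Igfbp3 and -0.04 to 0.24 for Igfbp4. Between BH-HF-WT and BH-WT they ran from -0.80 to 0.70 for Bcl6, -0.17 to 0.08 for Igf1 and -0.17 to 0.07 for Igfals. In the libraries labelled BH-HF-KO they ran from -0.02 to 0.11 for Ghr, -0.03 to 0.18 for Stat5b, -0.30 to 0.49 for Socs2, -0.64 to 1.29 for Bcl6, -0.03 to 0.26 for Igfals, -0.16 to 0.24 for Igfbp2 and -0.81 to 0.08 for Igfbp3.

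With 3 livers a group, low members such as Igfbp3 and Bcl6 have wide intervals, and a p that misses the threshold there does not show that levels were alike.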
